A study of Mus musculus with 6 samples.

Results

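The mouse olfactory epithelium is divided into zones along the dorsal to ventral axis, and 6 genes that mark the zones were followed in mice that lack 2 receptor transporting proteins. The markers were picked by name, 4 for the dorsal zone (Nqo1, Acsm4, Robo2 and Msx1) and 2 for the ventral zone (Ncam2 and Nrp2), out of 24661 genes in the deposited quantification. Whole olfactory mucosa, the epithelium with the tissues around it, was taken at postnatal day 21. It came from 3 wild-type mice and 3 Rtp1-/-;Rtp2-/- mice (RTP1,2DKO), all labelled as strain C57BL/6. The double knockout is constitutive. Its alleles were made in embryonic stem cells of mixed 129 and C57BL/6 origin, with the coding regions of both genes replaced, and the line was backcrossed to C57BL/6. RNA of the whole dissected tissue was sequenced, 1 library for each mouse, and the methods describe the mice as littermates of matched sex, 2 males and 1 female.

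Each olfactory sensory neuron (OSN) expresses a single odorant receptor (OR), chosen from those available in the zone in which the neuron lies. Dorsal OSNs, which include those with class I ORs, express the quinone reductase Nqo1 and send axons to the dorsal olfactory bulb. Ventral OSNs express the adhesion molecule Ncam2 (OCAM) and the guidance receptor Nrp2, and their axons end in the ventral bulb. RTP1 and RTP2 help ORs to reach the cell surface. The comparison asks whether the markers of the zones differed in level between the genotypes. In RNA of a whole tissue, fewer cells of a type and less RNA per cell cannot be told apart. The p-values set the difference between genotypes against the spread between these mice, which edgeR estimates in part from all genes.

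The libraries held 31125410 to 41636996 estimated counts. In normalized counts (estimated counts divided by a size factor), Rtp1 was 13543 to 25301 in wild-type and 85.5 to 108.8 in RTP1,2DKO mice, and Rtp2 7157 to 9510 and 26.2 to 58.0, in the direction of the labels. Xist was high and Ddx3y low in 1 mouse of each group, mouse 2. The tissue markers were present in every library. Without the deleted Rtp1 and Rtp2, which stand on the list of mature OSN markers, 9 of the other 10 markers fell in RTP1,2DKO mice (median log2 fold change -1.07 against 0.016 over all genes), and their summed level was 168162 to 192006 in wild-type and 85389 to 92728 in RTP1,2DKO. Omp, the defining marker, fell from 64807 ± 4152 to 34635 ± 6247 (mean ± SD, n = 3 mice), by 0.90 on the log2 scale (adjusted p = 0.00297 in edgeR's quasi-likelihood test). Of 11 immature OSN markers, 2 rose (Gap43 and Gng8), with summed levels of 42080 to 56052 and 54107 to 61314, and of 7 globose basal cell markers 1 rose (Hes6), with 6339 to 7569 and 9001 to 11232. Of 4 blood markers 1 rose (Hbb-bt), with 56750 to 92331 and 90382 to 165573. In edgeR, 5 immature OSN, all 7 globose basal and all 4 blood markers had an unadjusted p under 0.05, each with a positive log2 fold change. The share over all genes was 11.8% in both directions, while 3.15% fell and 0.46% rose past the adjusted threshold. DESeq2 called 4, 2 and 2 of these lists. None of the 4 horizontal basal, 7 sustentacular, 4 Bowman gland, 5 respiratory ciliated, 7 ensheathing glia, 7 mesenchyme and bone, 6 endothelial and lymphatic and 4 vomeronasal neuron markers passed in edgeR or DESeq2. Among the markers of these other cell types, 1 respiratory, 1 glial and 2 vomeronasal markers had an unadjusted p under 0.05. The secretory gene Bpifb9b took 4.81% to 13.7% of the counts of a library. The part of these cell types in the values of the zone markers was not tested.

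A dorsal marker, Nqo1, was lower in RTP1,2DKO mice, and the other 3 dorsal and both ventral markers did not pass the test. All 6 genes had enough counts to be tested. Of the 6, 1 passed an adjusted p of 0.05 in edgeR, downwards, where 3.15% of the 22152 genes tested did (3.61% in both directions and 0.46% upwards). No marker rose. Nqo1 was also the only marker with an unadjusted p under 0.05, against 11.8% of all genes, and the only one called by DESeq2, against 5.81% of the 19129 genes to which it gave an adjusted p. The median log2 fold change of the 6 was -0.16. In 1 of the 6, again Nqo1, the values of the groups did not overlap, against 16.4% of all genes in either direction and 9.24% downwards.

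**Figure D1:**
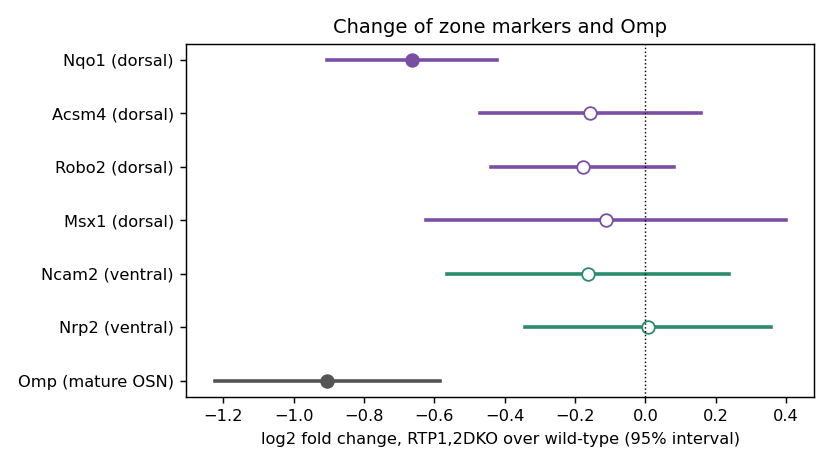
Log2 fold change of each zone marker and of Omp in RTP1,2DKO over wild-type mice (x axis), with its 95% interval as a bar. Purple stands for dorsal, green for ventral and gray for Omp, and filled points mark genes past the threshold. The intervals of Nqo1 and Omp lie below 0, while the other 5 intervals include 0.

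Nqo1 encodes NAD(P)H quinone dehydrogenase 1, a cytosolic enzyme that reduces quinones and marks dorsal OSNs. The gene lies at chr8:107388225-107403206 on the minus strand (GRCm38). The promoter from 250 bases before the RefSeq transcription start to 50 bases after it, chr8:107403156-107403455 read on the minus strand, is shown because Nqo1 is the marker that changed, with a TATA box core (TATAAA) in capitals.
Nqo1 promoter: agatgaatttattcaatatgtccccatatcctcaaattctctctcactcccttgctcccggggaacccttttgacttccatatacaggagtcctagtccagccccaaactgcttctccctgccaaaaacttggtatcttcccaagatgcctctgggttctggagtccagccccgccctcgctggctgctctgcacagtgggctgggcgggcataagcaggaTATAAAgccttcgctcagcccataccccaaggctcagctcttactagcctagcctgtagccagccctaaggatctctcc
The TATAAA match starts 29 bases before the start site. Of 32851 RefSeq promoters of the same length, 13.6% hold TATAAA on either strand. No match was found in this window to the antioxidant response element core TGACNNNGC (12.4% of promoters), to the EBF core CCCNNGGG (13.7%) or to the LIM-homeodomain core TAATTA (5.29%). Sequence outside the window, such as that farther upstream, was not searched.

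The Nqo1 normalized count was 1764, 1787 and 1843 in wild-type mice 1, 2 and 3, and 1120, 1078 and 1208 in RTP1,2DKO mice 1, 2 and 3. The groups did not overlap, and the spread within each was small beside the distance between them. Means were 1798 ± 41.0 and 1135 ± 66.5 (SD, n = 3), a log2 fold change of -0.66 (SE 0.11, adjusted p = 0.00365, edgeR). The level in RTP1,2DKO was 63.1% of wild-type, with a 95% interval from 53.4% to 74.6%. An exact permutation test over the 6 mice gave p = 0.1, the smallest value that 3 against 3 allows.

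Acsm4, also known as O-MACS, belongs to the medium-chain acyl-CoA synthetases, mitochondrial enzymes that activate fatty acids, and is expressed in the dorsal zone of the olfactory epithelium. It lies at chr7:119690026-119714565 on the plus strand. Its promoter window, chr7:119689776-119690075, is shown as that of the most highly expressed marker, with the EBF core match CCCAAGGG in capitals. EBF factors are known as regulators of OSN genes.
Acsm4 promoter: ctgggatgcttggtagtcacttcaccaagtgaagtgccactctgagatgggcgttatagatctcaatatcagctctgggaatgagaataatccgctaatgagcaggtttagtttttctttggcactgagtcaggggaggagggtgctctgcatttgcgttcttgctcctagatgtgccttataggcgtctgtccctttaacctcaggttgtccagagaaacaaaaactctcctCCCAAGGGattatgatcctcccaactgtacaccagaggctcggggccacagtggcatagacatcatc
This match starts 17 bases before the start site. Of 3 windows of Robo2 and 1 of Msx1, 1 window of each held a match, to CCCNNGGG and to TGACNNNGC. The windows of Ncam2 and Nrp2 held no match to the 4 motifs. A match is a run of letters and was not tested for binding.

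The Acsm4 normalized count was 5280, 6387 and 6939 in wild-type mice and 4610, 5934 and 6149 in RTP1,2DKO mice. Mouse 1 was the lowest of each group, and the ranges overlapped. Means were 6202 ± 845 and 5565 ± 834, a log2 fold change of -0.16 (SE 0.14, adjusted p = 0.780, edgeR). The 95% interval reached from 72.2% to 111.6% of wild-type, so a fall of the size measured for Nqo1 lay outside it.

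Robo2 is a receptor for the Slit repellents and guides the axons of dorsal OSNs. It lies at chr16:73891839-74411825 on the minus strand, 50.5 Mb from Rtp1 on the same chromosome. Its normalized count was 3814, 3967 and 3420 in wild-type mice and 3605, 3042 and 3251 in RTP1,2DKO mice. RTP1,2DKO mouse 1 fell inside the wild-type range, and the other two were below it. The log2 fold change was -0.18 (95% interval -0.44 to 0.08, adjusted p = 0.669, edgeR).

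Msx1, a homeobox transcription factor, lies at chr5:37820485-37824583 on the minus strand and was the least abundant marker. Its normalized count was 143, 181 and 164 in wild-type mice and 172, 107 and 173 in RTP1,2DKO mice. RTP1,2DKO mouse 2 was the lowest of all 6, and the groups overlapped. The log2 fold change was -0.11 with the widest interval of the dorsal markers, -0.62 to 0.40 (adjusted p = 0.927, edgeR). A fall of the size of that of Omp lay outside this interval.

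Ncam2, an immunoglobulin superfamily adhesion molecule of ventral OSN axons, lies at chr16:81200697-81626828 on the plus strand, 57.8 Mb from Rtp1. Its normalized count was 2198, 1788 and 1310 in wild-type mice and 1935, 1340 and 1455 in RTP1,2DKO mice. Mouse 1 was the highest of each group, and all 3 RTP1,2DKO values lay inside the wild-type range. Means were 1765 ± 445 and 1577 ± 315, a log2 fold change of -0.16 (95% interval -0.57 to 0.24, adjusted p = 0.840, edgeR).

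Nrp2 is a co-receptor for class 3 semaphorins such as Sema3f and lies at chr1:62703285-62818695 on the plus strand. Its normalized count was 7867, 5682 and 5120 in wild-type mice and 7126, 5920 and 5710 in RTP1,2DKO mice. All 3 RTP1,2DKO values again fell within the wild-type range, with mouse 1 the highest of each group. Means were 6223 ± 1451 and 6252 ± 764, a log2 fold change of 0.01 (SE 0.16, adjusted p = 0.995, edgeR). The 95% interval ran from 78.8% to 128.0% of wild-type.

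**Figure D2:**
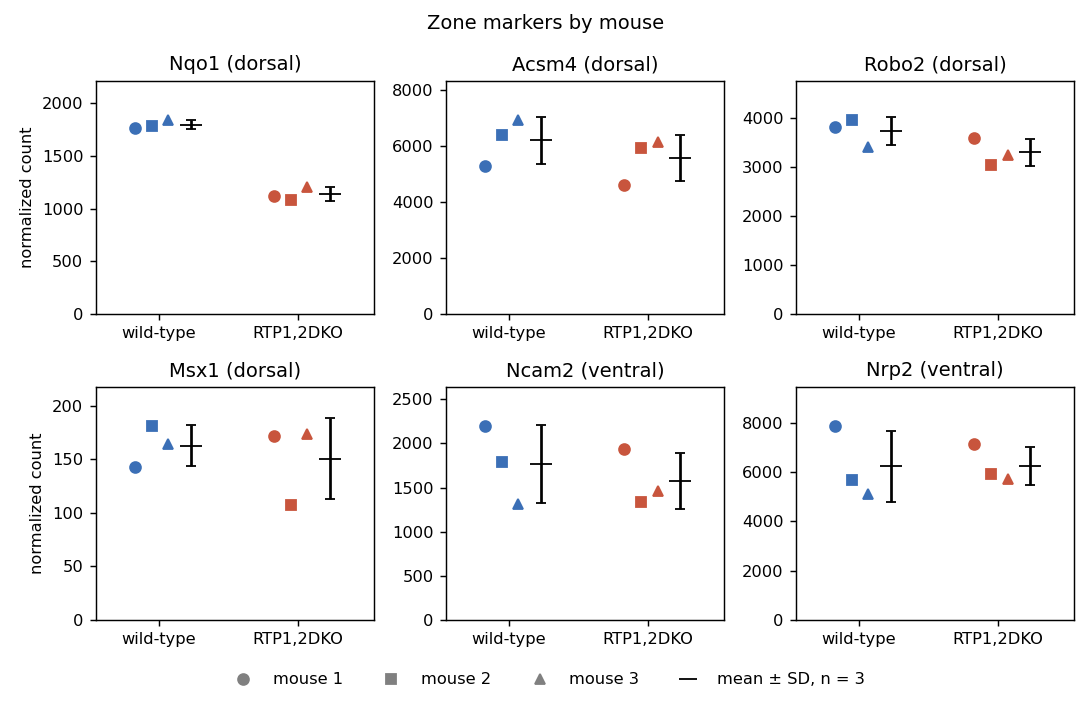
Normalized count (y axis, from 0) of each zone marker in 3 wild-type (blue) and 3 RTP1,2DKO (red) mice. Symbols give the mouse number and black bars the mean ± SD. The groups are apart for Nqo1 and overlap for the other 5 markers.

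The zones were then set side by side within each mouse, as the mean log2 normalized count of the dorsal markers less that of the ventral markers. This difference was -1.47, -0.91 and -0.66 in wild-type mice and -1.47, -1.23 and -1.01 in RTP1,2DKO mice. The groups overlapped, and mouse 1 of each group had nearly the same value. Means were -1.01 ± 0.41 and -1.24 ± 0.23, so the dorsal side was lower in RTP1,2DKO by 0.22 on the log2 scale, less than the SD within either group. Without Nqo1 the shift was -0.10, and without the low-count Msx1 it was -0.27. The dorsal mean alone was 10.65 ± 0.09 in wild-type and 10.37 ± 0.13 in RTP1,2DKO, and the ventral mean 11.67 ± 0.34 and 11.60 ± 0.22. As the members were chosen by hand, this score is given without a p-value.

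Of the 8 pairs of a dorsal and a ventral marker, only Nqo1 with Nrp2 gave ratios that did not overlap between the groups. Nqo1 on its own already did not overlap, as 16.4% of all genes did not in either direction. The share of all genes with such ratios to Nrp2 or Ncam2 was not computed. The log2 ratio of Nqo1 to Nrp2 was -2.16, -1.67 and -1.47 in wild-type mice and -2.67, -2.46 and -2.24 in RTP1,2DKO mice. Against Ncam2 the Nqo1 ratio overlapped, at 0.06 ± 0.41 and -0.46 ± 0.29. The ratios of Acsm4, Robo2 and Msx1 to Ncam2 or Nrp2 moved by -0.20 to 0.01 between the group means, each within the SD of the wild-type mice.

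**Figure D3:**
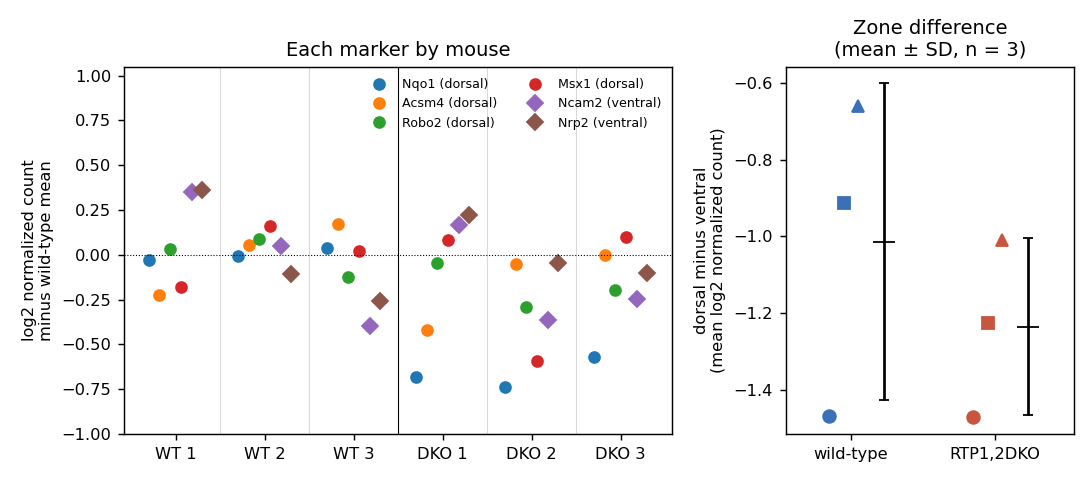
Left, log2 normalized count of each marker in each mouse (x axis, WT for wild-type and DKO for RTP1,2DKO) less the wild-type mean, with circles for dorsal and diamonds for ventral markers. Right, the dorsal minus ventral difference for each mouse with mean ± SD, where the groups overlap. Nqo1 is the lowest marker in each of the 3 RTP1,2DKO mice.

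Omp served as a second scale, since mature OSNs express it in all zones. In wild-type mice the counts of the markers amounted to 2.78 ± 0.18% of the Omp count for Nqo1, 9.61 ± 1.54% for Acsm4, 5.79 ± 0.76% for Robo2 and 0.254 ± 0.046% for Msx1. Those of the ventral genes were 2.73 ± 0.69% for Ncam2 and 9.60 ± 2.03% for Nrp2. In RTP1,2DKO mice every mean was higher. Taken from the means of the log2 ratios, the rise was 1.19-fold for Nqo1, 1.69-fold for Acsm4, 1.67-fold for Robo2 and 1.72-fold for Msx1. It was 1.70-fold for Ncam2 and 1.92-fold for Nrp2. The groups did not overlap for Acsm4, Robo2, Ncam2 and Nrp2 (exact permutation p = 0.1, adjusted p = 0.15 over 6 tests), and overlapped for Nqo1 and Msx1 (exact permutation p = 0.2, adjusted p = 0.20). Of all 22151 other genes, 70% stood higher relative to Omp with no overlap, so the 4 of 6 markers were near that background. RTP1,2DKO mouse 1, with the lowest Omp count (27622), gave the highest ratio for each marker.

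With the mean log2 count of Omp, Adcy3, Cnga2, Cnga4 and Cngb1, components of mature OSNs and their odor transduction, in place of Omp, all 6 markers stood apart (exact permutation p = 0.1 for each), as 76.6% of the other genes did in the same direction. On that scale, again from the means of the log2 ratios, RTP1,2DKO was 1.38-fold higher for Nqo1 and 1.93-fold to 2.22-fold higher for the other 5. On both scales the smallest shift belonged to Nqo1. The difference in shift between markers was not tested.

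**Figure D4:**
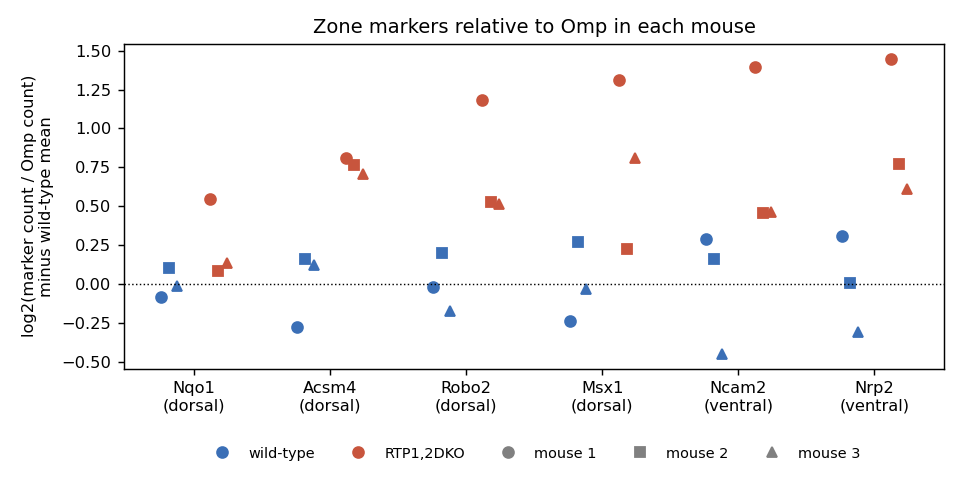
Log2 ratio of each marker's count to the Omp count in the same mouse, less the wild-type mean (y axis), for wild-type (blue) and RTP1,2DKO (red) mice, with symbols for the mouse number. The RTP1,2DKO points of Acsm4, Robo2, Ncam2 and Nrp2 all lie above the wild-type points.

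Levels can be compared between genes only per length. In FPKM (estimated counts scaled by effective length and library total), the order in wild-type mice was Acsm4 (112.0 ± 16.1), Nqo1 (52.1 ± 3.89), Nrp2 (33.8 ± 9.08), Robo2 (14.5 ± 2.27), Ncam2 (14.2 ± 3.85) and Msx1 (3.43 ± 0.63). Robo2 and Ncam2 overlapped and have no order between them, while the other neighbors stood apart in all 3 mice. In RTP1,2DKO mice the means were 97.6 ± 8.31 for Acsm4, 32.1 ± 2.25 for Nqo1, 33.0 ± 6.77 for Nrp2, 12.5 ± 1.92 for Robo2, 12.2 ± 3.10 for Ncam2 and 3.10 ± 0.85 for Msx1. Nqo1 there overlapped with Nrp2, whose FPKM ranged from 28.1 to 40.7. On this scale Msx1 stood near the middle of all genes and Acsm4 at percentile 97.3.

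The deposited files split the ventral markers into several transcripts, and the dorsal markers have 1 transcript each. Ncam2 occurs as a form with a membrane-spanning segment and a form held by a lipid anchor. The files list Ncam2 transcripts of 4893 and 3590 bases, and the former has the length of GENCODE Ncam2-201 (coding length 2181 bases), whereas Ncam2-202 has a coding length of 2511 bases. The last coding exon of Ncam2-201 (chr16:81595207-81595310) and the first coding exon found only in Ncam2-202 (chr16:81615703-81615907) are shown on the plus strand, as they set the 2 coding ends apart.
Ncam2-201: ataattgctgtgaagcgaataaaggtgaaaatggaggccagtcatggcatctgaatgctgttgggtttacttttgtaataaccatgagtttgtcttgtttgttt
Ncam2-202: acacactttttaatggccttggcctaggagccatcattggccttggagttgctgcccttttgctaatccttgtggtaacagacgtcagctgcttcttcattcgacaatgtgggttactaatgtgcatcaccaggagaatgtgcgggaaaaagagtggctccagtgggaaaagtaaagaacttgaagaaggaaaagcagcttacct
The 4893-base transcript took 53.0 ± 7.44% of the Ncam2 count in wild-type and 56.4 ± 5.34% in RTP1,2DKO mice (exact permutation p = 0.6). The 3590-base transcript matched no GENCODE transcript by length, so the share cannot be read as a share of either coding end.

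Nrp2 has 6 transcripts in the files, of 4696, 4711, 6673, 6688, 6724 and 6739 bases. Within the short pair and within the long set, they exceed the shortest by 15, 51 or 66 bases. GENCODE transcripts of Nrp2 have optional coding segments of 15 bases (chr1:62786302-62786316, plus strand) and 51 bases (chr1:62812534-62812584). The segments are shown because the split of reads within each set would rest on them, and were matched to the files by length alone.
Nrp2 short segment: gtgaggattttaaag
Nrp2 exon: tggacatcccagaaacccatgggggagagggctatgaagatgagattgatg
The transcript with the highest mean share, of 6724 bases, took 37.3 ± 14.0% of the Nrp2 count in wild-type and 31.9 ± 8.37% in RTP1,2DKO mice (exact permutation p = 0.6, adjusted p = 0.6). The 6673-base transcript held the larger share in wild-type mouse 1 and in RTP1,2DKO mice 1 and 3. Transcripts that differ by only 15 bases share nearly all their sequence, and kallisto's split between them is uncertain. The share of the 4711-base transcript was 18.6%, 0.00015% and 6.65% in wild-type mice and 14.7%, 22.1% and 19.6% in RTP1,2DKO mice.

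A comparison of all 6 transcripts was added after the shares were seen. The 4696-base transcript took 19.9%, 25.6% and 22.9% in wild-type mice and 16.5%, 6.63% and 8.74% in RTP1,2DKO mice. The groups did not overlap (22.8 ± 2.86% and 10.6 ± 5.21%, exact permutation p = 0.1, adjusted p = 0.53 over 8 comparisons). This transcript differs from the 4711-base transcript by 15 bases, so its share carries the uncertainty of that split. The 4 transcripts over 6000 bases together held 68.8 ± 6.59% in wild-type and 70.6 ± 1.59% in RTP1,2DKO mice (exact permutation p = 0.8, outside the 8 comparisons). Transcripts with the 51-base exon together held 40.9 ± 14.2% and 41.2 ± 7.76% (exact permutation p = 0.9, adjusted p = 0.9), and those with the 15-base segment 12.7 ± 10.8% and 28.7 ± 11.96% (exact permutation p = 0.2, adjusted p = 0.53).

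**Figure D5:**
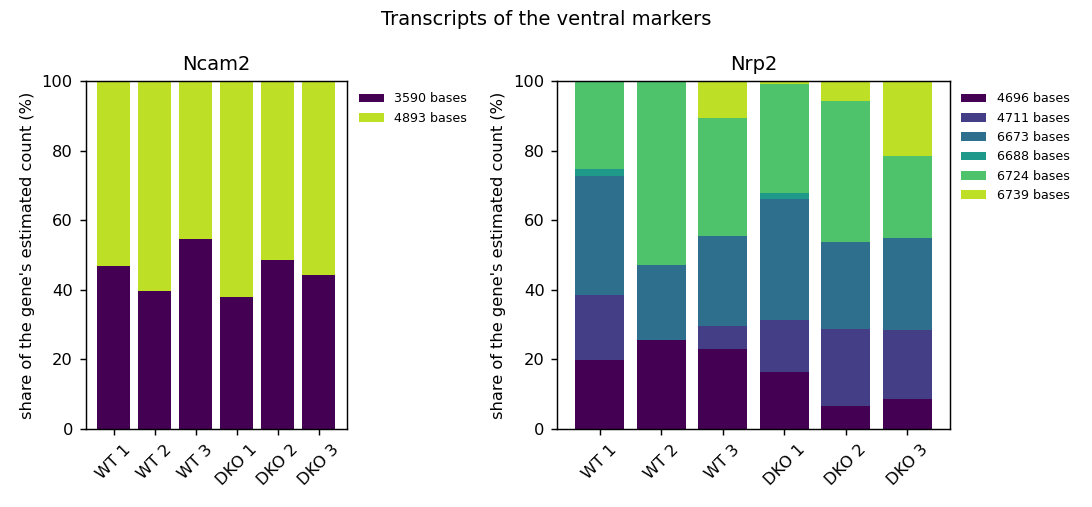
Share of the estimated count of Ncam2 (left) and Nrp2 (right) on each transcript, named by its length in bases, in each mouse (x axis, WT for wild-type and DKO for RTP1,2DKO). The Nrp2 shares of transcripts that differ by 15 bases vary between mice of one group, as in the wild-type 4711-base share of 0.00015% to 18.6%.

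The pathways around the members were counted from lists chosen by name. Over all genes, 3.15% fell and 0.46% rose past the threshold in edgeR, and 11.8% had an unadjusted p under 0.05. Of 12 genes of the NRF2 pathway, which switches on antioxidant enzymes, 2 fell in edgeR, Nqo1 itself and Nfe2l2, and none rose. Nfe2l2, which encodes the NRF2 factor, went from 11950 ± 1048 to 7762 ± 650 normalized counts (log2 fold change -0.62, adjusted p = 0.0104, edgeR). The median of the list was -0.05. Of the 12, 8 had a negative log2 fold change and 3 had an unadjusted p under 0.05 in edgeR. Other NRF2 targets did not pass, such as Srxn1 (log2 fold change -0.31, unadjusted p = 0.0455 in edgeR), Gclm (0.04) and Hmox1 (-0.03). Keap1 (0.11), the inhibitor of NRF2, did not pass either. Srxn1, Gclm, Hmox1 and Keap1 were named after their values were seen.

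Of 14 class 3 semaphorin, neuropilin and plexin genes, with a median of 0.03, 4 fell and none rose, against 3.15% and 0.46% of all genes. Plxna3, a plexin that signals for neuropilins, fell by 1.04 on the log2 scale (adjusted p = 2.3e-04, edgeR) and Sema3e by 0.78 (adjusted p = 0.0051). Nrp1, the paralogue of Nrp2, fell by 0.62 (adjusted p = 0.0077) and Plxna4 by 0.69 (adjusted p = 0.0120), and both were named because the count is small. Sema3f, a ligand of Nrp2, had a log2 fold change of 0.18 and did not pass, and was named for its role.

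None of the 10 Slit and Robo genes passed in edgeR (median -0.08). Slit2 (0.08) and Robo1 (0.01) had the highest mean counts over the 6 mice, 1 gene had an unadjusted p under 0.05 and DESeq2 called 1. That gene was Slit1, at 864 ± 130 and 606 ± 73.8 normalized counts, named after its values were seen. Of 16 BMP and Msx genes none passed in edgeR or DESeq2 (median 0.01, 1 with an unadjusted p under 0.05), with Bmpr2 at -0.19 and Bmpr1a at -0.03. Of the 5 medium-chain acyl-CoA synthetases, Acsm4 included, none passed in edgeR or DESeq2 or had an unadjusted p under 0.05, and the median was 0.11. Among 10 close paralogues of the members only Nrp1 passed, while Ncam1 had a log2 fold change of -0.25 (adjusted p = 0.602, edgeR) and Nqo2 of -0.06.

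Retinoic acid is a known signal in the zonal patterning of the nose. Of 18 genes of its metabolism and signaling, 1 fell (the receptor Rarg, by 0.72) and 2 rose in edgeR, against 3.15% and 0.46% of all genes. The binding protein genes Crabp1 and Crabp2 rose by 0.88 and 0.94 on the log2 scale (adjusted p = 0.0294 and 0.0110). None of the 4 NFI transcription factors passed in edgeR or DESeq2 or had an unadjusted p under 0.05, with Nfib at 0.09 and Nfix at -0.07. Class I ORs, taken as the symbols Olfr543 to Olfr692 and known as receptors of the dorsal zone, had 40 of 116 genes that fell (34.5%) and 6 that rose, with a median of -0.59. Among the other 973 genes with an Olfr symbol 373 fell (38.3%) and 41 rose, with a median of -1.08, and the difference between these OR groups was not tested. Of 14 trace amine-associated receptor genes, with a median of 0.95, 1 rose past the threshold, against 0.46% of all genes. All 14 had a positive log2 fold change, and 6 had an unadjusted p under 0.05 in edgeR, against 11.8% of all genes in both directions. Their summed level was 550 to 755 in wild-type and 1075 to 1181 in RTP1,2DKO mice.

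The genes whose normalized counts ran closest to those of each marker over the 6 mice were sought among 13900 genes, by Pearson's r and as a description. Nqo1 was nearest to Iqub (r = 0.998), Atp2b1 and Olfr695 (both 0.996). Ncam2 was nearest to Dcx (0.994), Ikzf5 (0.991) and Jmy (0.990). Dcx stands on the list of 11 immature OSN markers, as the only 1 with a negative log2 fold change (-0.22). Acsm4 was nearest to Psmc6 (0.998), Robo2 to Fam178a (0.997), Msx1 to Bmp6 (0.991) and Nrp2 to Cnot1 (0.998). With only 6 mice and this many genes searched, no p-value is given. Among the markers, Ncam2 and Nrp2 ran together (r = 0.863), and Acsm4 ran opposite to Nrp2 (r = -0.876) and Ncam2 (r = -0.702). The markers did not all run together by zone. Pairs of dorsal markers ranged from r = -0.199 (Acsm4 with Robo2) to 0.668 (Nqo1 with Robo2). Pairs of a dorsal and a ventral marker ranged from -0.876 to 0.785 (Robo2 with Ncam2). These values share libraries and size factors.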

How the data were processed

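Each of the 6 mice (3 in either genotype) had 1 RNA-Seq library and 1 table. The authors pseudoaligned the reads with kallisto (version not given in the sources used here) to UCSC mouse transcripts with extended OR annotations, and the submitters' processing notes name mm10. The labels name a KAPA stranded kit and the methods a TruSeq stranded kit. The deposited tables hold estimated counts, TPM and transcript and effective lengths. Estimated counts were summed by gene (target name without its trailing number) and rounded. The 22152 of 24661 genes that reached 1 count in any library were tested with edgeR 4.0.16 (quasi-likelihood), with median-of-ratios size factors (0.907 to 1.147) from DESeq2 1.42.0, and p-values were adjusted by Benjamini-Hochberg over all genes, with a threshold of 0.05. The scripts were tested on simulated data. FPKM was computed from counts, effective lengths and total counts, and log2 levels used a pseudocount of 0.5. Permutation tests were exact and two-sided. Positions are from GENCODE and promoters from RefSeq, both on GRCm38, with all 6 members matched. The named genes of a list are the 2 with the smallest adjusted p where past the threshold, otherwise the 2 with the highest mean count. The members and lists were chosen with earlier results of these data known. Alternatives were TMM, filterByExpr, DESeq2's test, a replicate block, leaving out each mouse, another neuronal reference, other zone scores and TPM.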

Additional observations from a re-analysis of the deposited data

How the results depend on the processing

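Nqo1 stayed past the threshold, and the other 5 markers did not pass it, with TMM scaling, the filterByExpr filter, DESeq2's test, the replicate block and each mouse left out. The number of genes that rose was 102, against 217 with DESeq2. Leaving out 1 mouse at a time gave 598 to 777 genes past the threshold, 533 to 686 down and 52 to 132 up, with 52, 59 and 65 up without RTP1,2DKO mouse 1, 2 and 3. The log2 fold change of Nqo1 then ran from -0.71 to -0.63, Acsm4 from -0.26 to -0.04, Robo2 from -0.25 to -0.12, Msx1 from -0.23 to 0.08, Ncam2 from -0.34 to 0.03 and Nrp2 from -0.12 to 0.21. The sign turned for Msx1 without RTP1,2DKO mouse 2 (0.083), for Ncam2 without wild-type mouse 1 (0.025) and for Nrp2 without wild-type mouse 2 (-0.06), wild-type mouse 3 (-0.12) or RTP1,2DKO mouse 1 (-0.10). The dorsal minus ventral difference of mean fitted log2 fold changes, -0.20, ran from -0.44 to -0.04, and without Nqo1, a choice made after the data were seen, it was -0.07. With the median over the markers of a zone in place of the mean it was -0.089, and without Msx1 -0.25.

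The replicate numbers of the titles gave correlations of 0.131, 0.172 and 0.0936 between same-numbered mice, and RTP1,2DKO mouse 3 correlated slightly better with wild-type mouse 1 (0.0981). Mouse 2 was female by Xist in both groups, and the methods name littermates, but no source used here says that a number marks a litter, so the pairing stayed out of the main test. With the replicate block, 1012 genes passed, 816 down and 196 up, and no marker changed its call (Nqo1 -0.66). With it, Acsm4 was at -0.16 (adjusted p = 0.624 in edgeR with the block) and Robo2 at -0.18 (adjusted p = 0.607). Both were lower in RTP1,2DKO in 3 of 3 same-numbered pairs, as were Nqo1 and the dorsal minus ventral difference. In that difference, mouse 1 of wild-type and of RTP1,2DKO were nearly equal (-1.469 and -1.472). Ncam2 was lower in 2 of 3 pairs, and Msx1 and Nrp2 in 1 of 3. The share of all genes lower in 3 of 3 pairs was not computed.

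With the deposited TPM in place of FPKM the wild-type mean of Nqo1 was 57.5 and the ratio of the RTP1,2DKO to the wild-type mean 0.535 in place of 0.617. Every other marker also had a lower ratio in TPM. It was 0.757 in place of 0.872 for Acsm4, 0.747 in place of 0.863 for Robo2 and 0.789 in place of 0.905 for Msx1. For the ventral markers it was 0.743 in place of 0.865 (Ncam2) and 0.839 in place of 0.976 (Nrp2). With 3 mice a group, no exact permutation test could go below 0.1, and the intervals of Msx1 and Ncam2 leave changes of moderate size undetected.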
